A study of Mus musculus with 20 samples.

Results

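The genes described here are the subunits of the transcription factor NF-kB and the proteins that restrain it, in mouse samples labelled as red cell precursors. The list holds 10 genes: the subunits Nfkb1, Nfkb2, Rel, Rela and Relb, the inhibitors Nfkbia, Nfkbib, Nfkbie and Nfkbiz, and the feedback enzyme Tnfaip3. Members were taken by symbol from the array's annotation, and 9 of the 10 were each measured by 1 probe set, out of 19572 probe sets with a symbol (19505 genes). Nfkb1 was not analysed here.

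RNA was measured on 20 mouse Clariom S arrays, with 2 arrays in each of 10 groups, all from C57BL/6 mice. Of these, 8 arrays held wild-type marrow progenitors, depleted of lineage-positive cells from females and grown with erythropoietin, either without (D1-Control, D2-Control) or with recombinant mouse interleukin 6 (D1-IL6, D2-IL6) at 100 ng/mL from the start of culture. The labels do not say what D1 and D2 stand for, and the series gives 2 mice as the source of these cells. The other 12 arrays held cells labelled as erythroblasts, taken from 1-year-old mice. The mice were double wild type (DWT) or lacked both mDia1, an actin-nucleating formin encoded by Diaph1, and the microRNA miR-146a (DKO). The cells were labelled as stage I (proerythroblasts), stage II+III or stage IV, the last being the most mature. The sources used here do not say how the stages were separated, nor whether the deletions are confined to blood cells. Each genotype had 2 mice, DWT arrays came from 1 male and 1 female at each stage, DKO arrays all came from females, and sex is therefore not balanced between the genotypes. The p-values below rest on the spread between the 2 arrays of a group. It was pooled over all groups of a fit and drawn toward the spread of other probe sets. As each genotype had 2 mice, arrays of different stages share mice, which the main fit does not model.

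NF-kB proteins bind DNA as dimers and switch on genes of inflammation, cell survival and immune defence. In unstimulated cells the IkB inhibitors hold the dimers in the cytoplasm, and signals from Toll-like, interleukin and tumour necrosis factor receptors lead the IkB kinases to mark these inhibitors for degradation. Nfkbia and Tnfaip3 are themselves NF-kB target genes and close a negative feedback loop, and miR-146a is another such brake, induced by NF-kB and directed against the adaptors that carry the receptor signal. In blood-forming tissue Rel is best known from lymphoid and myeloid cells.

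The microRNA missing from every DKO group is shown with its closest relative, because both carry the same seed, the part that pairs with target messages. The capitals mark the seed, bases 2 to 8 from the 5′ end, as listed by RefSeq for the assembly GRCm38.p6. The miR-146a-5p sequence lies at chr11:43374435-43374456 on the minus strand and that of miR-146b-5p at chr19:46342790-46342811 on the plus strand.
mmu-miR-146a-5p: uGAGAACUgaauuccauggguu
mmu-miR-146b-5p: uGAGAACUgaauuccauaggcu
The annotation names no probe set for the gene of miR-146a, so the arrays do not check its deletion.

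RefSeq promoter windows of 300 bases, from 250 before to 50 after the annotated start, were given for 7 of the 10 members, in 10 windows, since Nfkb2 has 3 and Tnfaip3 2 annotated starts. The search for the NF-kB site used the kappaB consensus by name, on both strands. A match was found in 7 of the 10 windows, belonging to 5 of the 7 members (Nfkb2, Rel, Nfkbia, Nfkbie and Tnfaip3). Of all 32851 windows of this length in the table, 8.46% held one. The looser pattern GGGNNNNNCC, of which every consensus match is a special case, was found in 9 of the 10 windows against 50.8% of all windows. Printed here are the windows of Rel and Nfkbia, the members with the firmest changes below that have a window, and of Nfkbib, which has no match to either pattern. Capitals mark matches to the consensus, the sequences run 5′ to 3′ on the gene's own strand, and all 3 genes lie on the minus strand of GRCm38.p6. The windows are chr11:23770920-23771219 for Rel, chr12:55492598-55492897 for Nfkbia and chr7:28766595-28766894 for Nfkbib.
Rel: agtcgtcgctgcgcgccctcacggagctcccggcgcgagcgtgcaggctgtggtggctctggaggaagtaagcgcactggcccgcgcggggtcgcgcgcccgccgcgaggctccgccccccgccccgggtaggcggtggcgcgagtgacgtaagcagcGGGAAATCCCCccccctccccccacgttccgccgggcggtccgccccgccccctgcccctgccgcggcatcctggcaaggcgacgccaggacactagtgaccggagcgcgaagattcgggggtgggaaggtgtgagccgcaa
Nfkbia: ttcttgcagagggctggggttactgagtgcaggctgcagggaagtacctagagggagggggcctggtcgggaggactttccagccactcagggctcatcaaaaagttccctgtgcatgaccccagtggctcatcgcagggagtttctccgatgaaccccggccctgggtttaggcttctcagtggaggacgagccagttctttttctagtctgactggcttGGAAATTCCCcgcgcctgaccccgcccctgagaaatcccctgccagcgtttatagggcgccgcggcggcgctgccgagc
Nfkbib: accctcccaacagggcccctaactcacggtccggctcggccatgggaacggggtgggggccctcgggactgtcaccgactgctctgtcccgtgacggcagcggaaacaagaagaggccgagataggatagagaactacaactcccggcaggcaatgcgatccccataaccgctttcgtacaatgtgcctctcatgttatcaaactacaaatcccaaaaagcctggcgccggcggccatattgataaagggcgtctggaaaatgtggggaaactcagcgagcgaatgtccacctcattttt
In Rel the match GGGAAATCCC spans positions -92 to -83 from the start, and it overlaps a further match on the opposite strand. In Nfkbia the match GGAAATTCCC, on the strand opposite to the gene, spans -29 to -20. One Tnfaip3 window, of the 2 given, holds GGGACACCCC at -125 to -116 and GGAAATCCCC at -12 to -3. These are matches of letters, and binding was not measured.

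Values below are log2 signals, so a difference of 1 is a doubling, and they are comparable between arrays for 1 gene but not between genes. A signal counted as above background when it exceeded the 95th percentile of the background probe sets of its array, a level that lay between 7.25 and 7.74. Between 34.9% and 43.0% of probe sets passed it on each array. The correlation of the 2 arrays of a group was 0.970 to 0.994 in 9 groups and 0.903 in DKO-I, where replicate 2 reached at most 0.909 with any array. Diaph1, the gene deleted in DKO mice, was under the background level in all 6 DKO arrays (6.87 to 7.59) and between 9.29 and 11.49 in the 6 DWT arrays. The labelled cell type was checked with 8 erythroid marker genes, which were above background in both arrays of every group except DKO-I, where 5 of 8 were. In DKO-I Epor, the erythropoietin receptor, was above background in neither array and Gata1, the erythroid master regulator, in 1. The 5 were Alas2, Slc4a1, Klf1, Ank1 and Epb42, at means from 8.37 to 14.63. The erythroid list averaged 9.73 in DKO-I against 12.92 in DWT-I. In DKO-I the neutrophil genes S100a8 and Ngp averaged 18.18 and 18.41. The neutrophil list did not set this group apart, at a mean of 15.75 against 16.36 in DWT-I, with 8 of 12 markers lower than in DWT-I. The weak erythroid markers leave the label of DKO-I as proerythroblasts in doubt, and the neutrophil markers raise the same question for DWT-I. Both groups are named here by their labels alone. Neutrophil markers were also strong in other mouse samples, and all 12 of 12 were above background in both arrays of DWT-I, DKO-I and DKO-II+III.

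The members differed in how far they varied across the 10 groups. Rela, the main activating subunit, and Nfkbib were above background in all 20 arrays, and their group means spanned 1.77 and 2.18, more than those of 63.2% and 70.9% of genes. The group means of Nfkbiz spanned 7.92, more than those of 99.4% of genes, and those of Rel spanned 6.38, more than 97.8%. For Nfkbia the span was 5.20 and for Tnfaip3 4.58. At the other end, Nfkbie was above background in 0 of 20 arrays, Relb in 2 and Nfkb2 in 3, so little can be said of these genes.

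**Figure D1:**
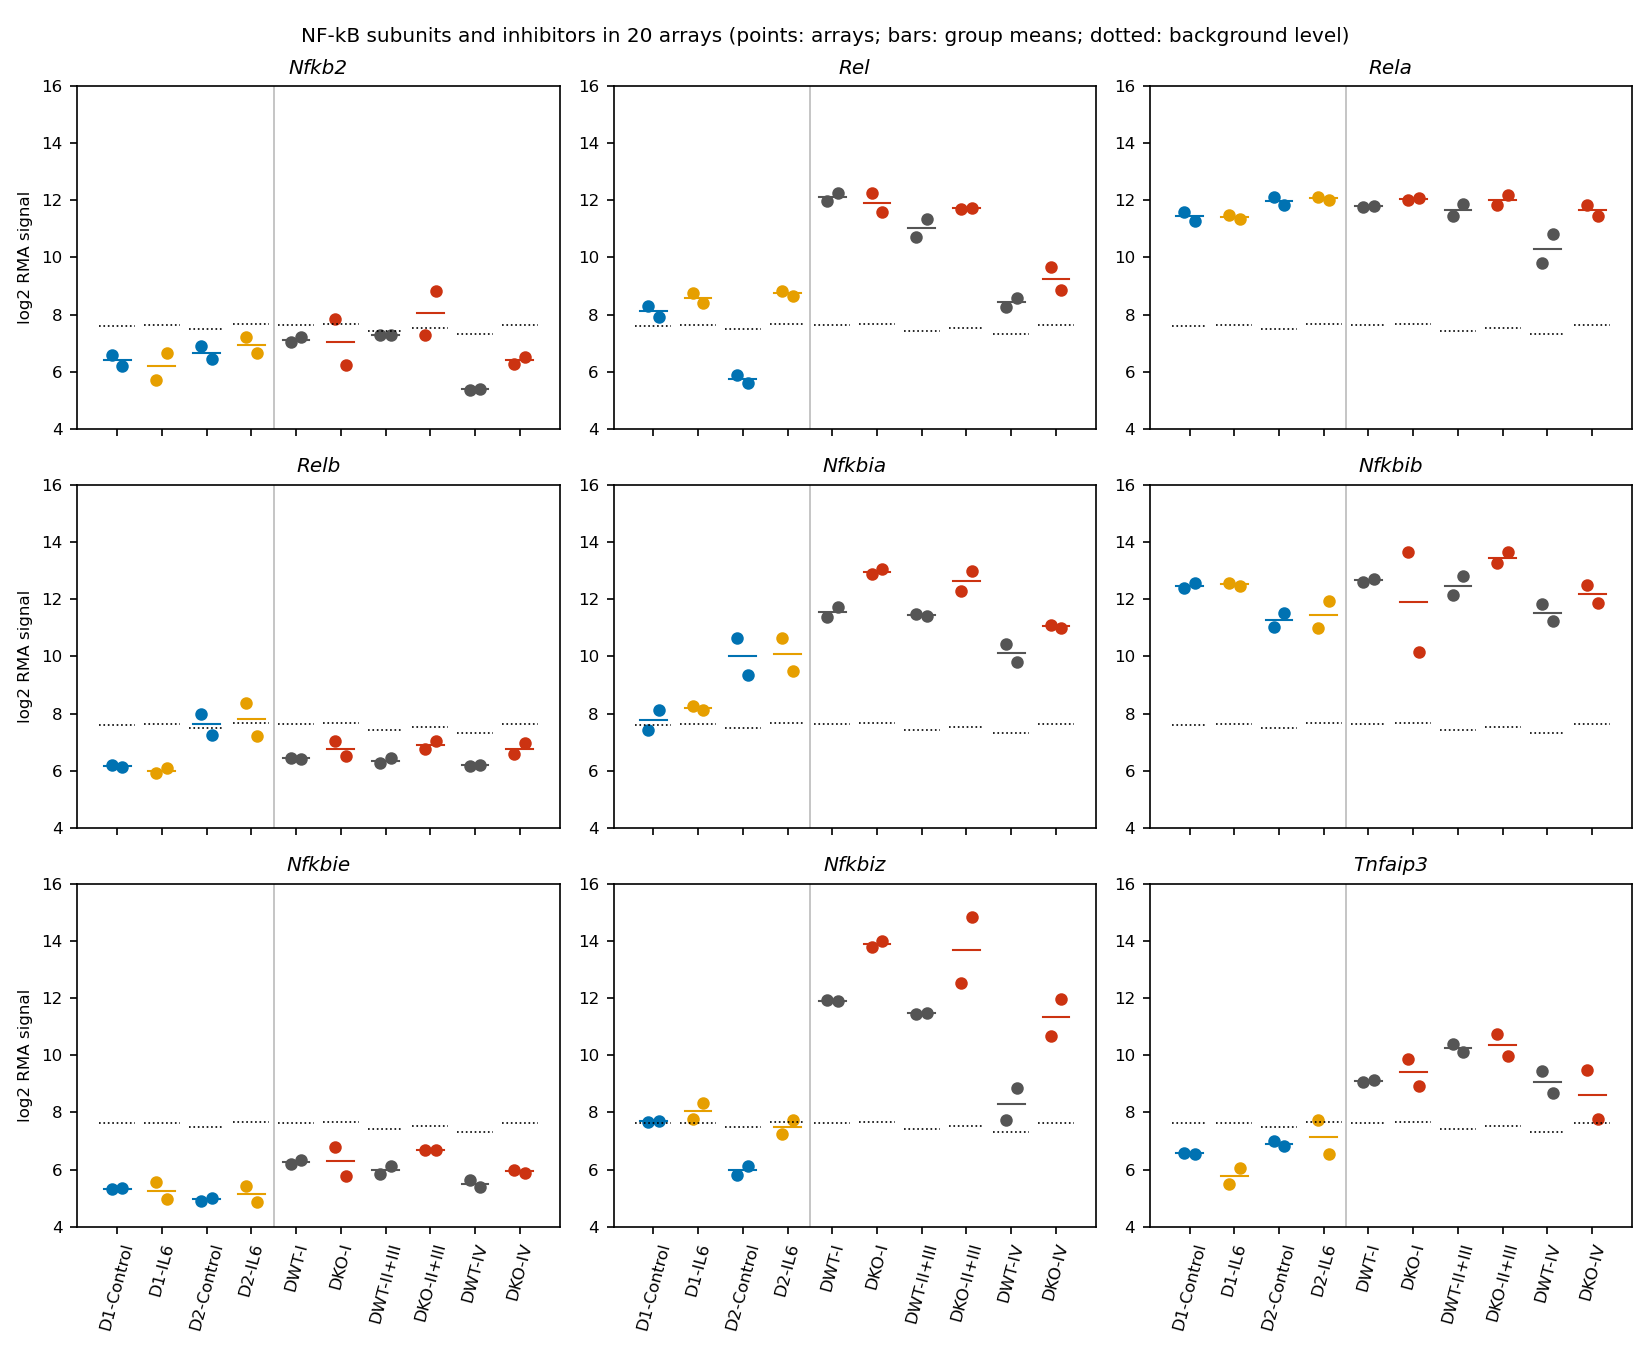
Log2 RMA signal of the 9 measured members (vertical axes) in the 10 groups (horizontal axes), with 1 point per array, a bar at the mean of the 2 arrays and a dotted line at the mean background level. Rel and Nfkbiz span the widest ranges, D2-Control is their lowest group, and Nfkbie stays under the background level in all 20 arrays.

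Rel encodes c-Rel, a subunit with a strong activation domain. It was highest in the earlier in vivo stages, at 11.99 and 12.25 in DWT-I, 12.24 and 11.59 in DKO-I, 11.71 and 11.73 in DKO-II+III, and 10.73 and 11.34 in DWT-II+III. Intermediate values were found in stage IV, at 9.67 and 8.85 in DKO-IV and 8.28 and 8.59 in DWT-IV. The cultures gave 8.83 and 8.65 in D2-IL6, 8.75 and 8.40 in D1-IL6, 8.30 and 7.92 in D1-Control, and 5.87 and 5.60 in D2-Control. In the order of group means, arrays of neighbouring groups overlapped among DWT-I, DKO-I and DKO-II+III and again among D2-IL6, D1-IL6, DWT-IV and D1-Control. D2-Control lay apart, with both arrays under the background level.

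Nfkbiz encodes IkB-zeta, an unusual family member that acts in the nucleus and helps to activate a subset of NF-kB targets. It was highest in DKO-I (13.79 and 13.99) and DKO-II+III (12.53 and 14.84), followed by DWT-I (11.94 and 11.89), DWT-II+III (11.46 and 11.47) and DKO-IV (10.69 and 11.97). DWT-IV gave 7.75 and 8.84. All cultures were at 8.34 or below, with D2-Control again lowest at 5.80 and 6.14. The arrays of DKO-I and DKO-II+III overlapped, as did those of DWT-II+III and DKO-IV and those of DWT-IV and D1-IL6.

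Nfkbia encodes IkB-alpha, the classical inhibitor. It ran from 12.88 and 13.06 in DKO-I and 12.29 and 12.98 in DKO-II+III, through 11.39 and 11.73 in DWT-I, 11.48 and 11.41 in DWT-II+III, and 11.11 and 10.99 in DKO-IV, to 10.45 and 9.81 in DWT-IV. In culture it was 10.65 and 9.49 in D2-IL6 and 10.64 and 9.36 in D2-Control, and lowest in D1-IL6 (8.28 and 8.12) and D1-Control (7.43 and 8.11). Within each genotype stage I and stage II+III overlapped, and the D2 cultures overlapped with DWT-IV.

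Tnfaip3 encodes A20, a ubiquitin-editing enzyme that shuts off the receptor signal. It was above background in every in vivo array, from 7.76 in DKO-IV replicate 2 to 10.75 in DKO-II+III replicate 1, and in only 1 of 8 cultured arrays (7.72 in D2-IL6 replicate 1). Its highest groups were DKO-II+III (10.75 and 9.99) and DWT-II+III (10.39 and 10.13), which overlapped. By group mean the T and NK cell marker list, with 8 measured genes, was also highest in these groups. It was at 10.37 to 11.65 in DKO-II+III and 10.09 to 10.29 in DWT-II+III, and between 6.43 and 6.75 in all cultured arrays. DKO-I at 9.91 to 10.23 and DKO-IV at 7.87 to 10.35 overlapped with DWT-II+III on this list. Tnfaip3 was 8.93 to 9.87 in DKO-I and 7.76 to 9.49 in DKO-IV. The part of T and NK cells in the level of Tnfaip3 was not tested.

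The first comparison asked what IL-6 did to these genes in culture. At D2, Rel and Nfkbiz were called higher with IL-6 than without, and none of the other 7 members passed the test. Rel was 8.83 and 8.65 with IL-6 against 5.87 and 5.60 without. The groups did not overlap, and the log2 difference was 3.01 ± 0.29 (SE, n = 2 arrays per group), with an adjusted p of 0.000119 in limma. Because Rel was under the background level in both D2-Control arrays, the difference can be stated as at least 1.26 on the log2 scale. Nfkbiz was 7.25 and 7.72 with IL-6 against 5.80 and 6.14 without. This log2 difference was 1.51 ± 0.31, with an adjusted p of 0.0224. Both D2-Control arrays and 1 of the 2 D2-IL6 arrays were under the background level, and the D2-IL6 mean did not exceed it, so no size of this difference can be stated. Nfkbiz lost the call without D2-Control replicate 1 (adjusted p = 0.111), without D2-IL6 replicate 2 (0.113) and with all 20 arrays in 1 fit (0.435). The 2 of 9 members called compare with 3.31% of all probe sets. For the other 7 members the 95% intervals of the difference lay between -0.99 and 1.13, both bounds being those of Nfkbia, which was 10.65 and 9.49 with IL-6 against 10.64 and 9.36 without.

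At D1, 0 of 9 members passed in limma, against 0.0511% of all probe sets, and 0 of 9 had an unadjusted p under 0.05. Rel was 8.75 and 8.40 with IL-6 against 8.30 and 7.92 without, a log2 difference of 0.47 ± 0.29 with a 95% interval from -0.17 to 1.11. The intervals of all 9 members lay between -1.61, for Tnfaip3, and 1.49, for Nfkbia. The effect of IL-6 on Rel was larger at D2 than at D1, by 2.54 ± 0.41 on the log2 scale (adjusted p = 0.0119 in limma's interaction test), and Rel was the 1 member of 9 called there, against 1.19% of all probe sets. With D2-Control set to the background level the difference of effects can be stated as at least 0.79. This call was lost with all 20 arrays in 1 fit (adjusted p = 0.0561), without D1-Control replicate 1 (0.0654) and without D1-IL6 replicate 2 (0.0889). For Nfkbiz the difference of effects was 1.15 ± 0.43, with an adjusted p of 0.478.

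Markers of monocytes and macrophages moved with Rel in culture. The mean of the 9 measured markers was 7.41 and 7.47 in the D2-Control arrays and 11.33 and 11.51 in D2-IL6, with 4 of 9 above background in both arrays of D2-Control and 7 of 9 in D2-IL6. With IL-6 at D2 the mean was higher for 8 of 9 markers and lower for 1, Cx3cr1, at 6.99 against 8.25. In both D2-Control arrays Adgre1, Mpeg1, Cd14 and Ms4a6d were under the background level, and Ly6c2, Lyz2, Ccr2 and Cx3cr1 were above it. At D1 the list stood at 10.45 to 10.87 without and 10.85 to 10.99 with IL-6. The neutrophil list moved from a range of 6.50 to 6.58 in D2-Control to 8.30 to 8.42 in D2-IL6, and the erythroid list was 15.17 to 15.20 and 14.98 to 15.01. The part of other cell types in the differences of Rel and Nfkbiz was not tested, and in bulk RNA fewer cells of a type cannot be told apart from less RNA per cell.

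**Figure D2:**
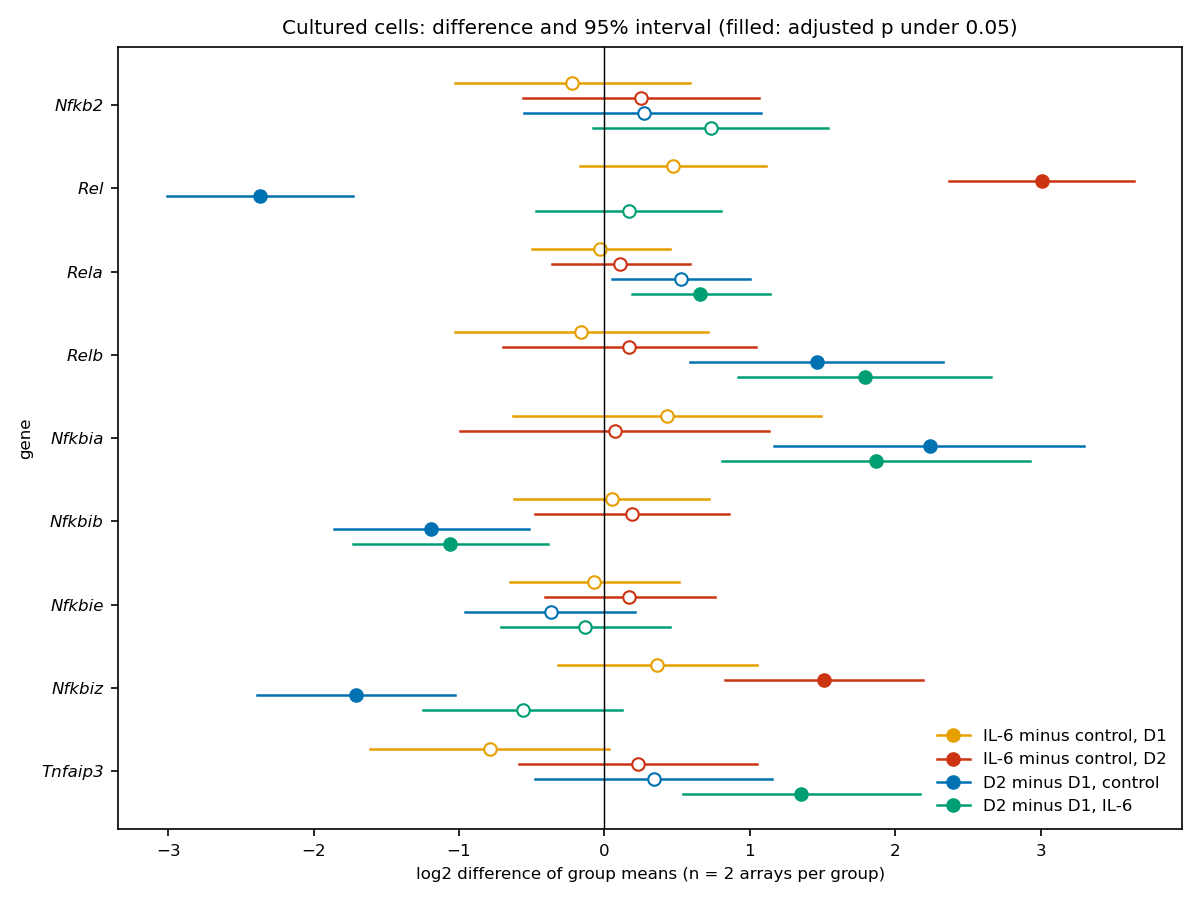
Log2 differences of group means in the cultured cells (horizontal axis) for each member (vertical axis), with 95% intervals from the limma fit and 4 comparisons per gene in colours. Filled points have an adjusted p under 0.05: Rel and Nfkbiz lie at 3.01 and 1.51 for IL-6 at D2 and at -2.37 and -1.71 for D2 minus D1 in control cultures.

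From D1 to D2 the members changed in both directions. In control cultures 5 of 9 were called, against 43.2% of all probe sets. Nfkbia rose from 7.43 and 8.11 to 10.64 and 9.36, by 2.24 ± 0.48 (adjusted p = 0.00357). Relb, a subunit of the non-canonical pathway, went from 6.20 and 6.13 to 8.0 and 7.24, a difference of 1.46 ± 0.39 (adjusted p = 0.0125). Both D1-Control arrays and 1 of the 2 D2-Control arrays of Relb were under background, which leaves a bound of 0.01. Rel fell by 2.37 ± 0.29, from 8.30 and 7.92 to 5.87 and 5.60 (adjusted p = 7.8e-05), with a bound of -0.62. Nfkbiz fell by 1.71 ± 0.31, from 7.67 and 7.70 to 5.80 and 6.14 (adjusted p = 0.00117), with a bound of -0.20. Nfkbib, the inhibitor IkB-beta, which is degraded more slowly than IkB-alpha, fell by 1.19 ± 0.30, from 12.39 and 12.56 to 11.04 and 11.52 (adjusted p = 0.00914). The calls of Rel, Nfkbia and Nfkbiz held in all 9 alternative analyses. That of Relb was lost without D1-Control replicate 1 (adjusted p = 0.0557), D1-Control replicate 2 (0.0662) or D2-Control replicate 1 (0.0844). That of Nfkbib was lost without D1-Control replicate 2 (0.0619) or D2-Control replicate 1 (0.0625) and with all 20 arrays in 1 fit (0.231).

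In cultures with IL-6, 5 of 9 members were called from D1 to D2, against 33.2%. Nfkbia rose from 8.28 and 8.12 to 10.65 and 9.49, by 1.87 ± 0.48, and Relb from 5.92 and 6.08 to 8.38 and 7.21, by 1.79 ± 0.39 (bound 0.17). Rela rose from 11.48 and 11.34 to 12.13 and 12.02, by 0.66 ± 0.21, and Nfkbib fell by 1.06 ± 0.30, from 12.56 and 12.48 to 10.98 and 11.95. Tnfaip3 was 5.51 and 6.05 at D1 and 7.72 and 6.56 at D2, a fitted difference of 1.35 ± 0.37. All of these Tnfaip3 arrays but 1 were under background, and no size of its difference can be stated. The adjusted p-values lay between 0.00498, for Relb, and 0.0351, for Rela. The call of Relb held in all 8 alternatives that measured it. Those of Nfkbia and Nfkbib were lost without either D1-IL6 array or without D2-IL6 replicate 1 (adjusted p from 0.0551 to 0.135), that of Tnfaip3 without D1-IL6 replicate 1 (0.138) or D2-IL6 replicate 1 (0.113), and that of Rela was kept in 3 of 9 alternatives. Nfkbib, Rela and Tnfaip3 also lost theirs with all 20 arrays in 1 fit (0.344, 0.192 and 0.0839), and Nfkbib with quantile normalization (0.0617). Without D2-IL6 replicate 1 the difference was -0.57 for Nfkbib and 0.78 for Tnfaip3. Rel, by contrast with the control cultures, was 8.75 and 8.40 at D1 and 8.83 and 8.65 at D2, a difference of 0.17 with a 95% interval from -0.47 to 0.80. In control cultures the monocyte and macrophage list stood at 10.45 to 10.87 at D1 and at 7.41 to 7.47 at D2. Other lists were lower at D2 as well: mast cells and basophils at 7.38 to 7.82 against 9.99 to 10.67, stem and progenitor cells at 5.92 to 6.22 against 8.79 to 8.82, and eosinophils at 6.46 to 6.62 against 7.71 to 8.21. With IL-6 the mast cell and basophil list went from 9.72 to 10.39 at D1 to 6.94 to 7.23 at D2, and the stem and progenitor list from 8.49 to 8.71 to 6.06 to 6.22. The part of these cells in the members' differences was not tested.

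In the mice, maturation was compared within each genotype. Rel was lower at stage IV than at stage II+III in both. In DWT it fell by 2.60 ± 0.45, from 10.73 and 11.34 to 8.28 and 8.59 (adjusted p = 0.015). In DKO it fell by 2.46 ± 0.45, from 11.71 and 11.73 to 9.67 and 8.85 (adjusted p = 0.00993). No array of stage IV reached the lowest of stage II+III in either genotype. Each call was kept in most alternatives and lost without single arrays: in DWT without DWT-IV replicate 1 (adjusted p = 0.125) or DWT-II+III replicate 2 (0.191), and in DKO without either DKO-II+III array (0.0516 each) or without DKO-IV replicate 2 (0.109).

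In DWT the other member called was Nfkbiz, which fell by 3.17 ± 0.71, from 11.46 and 11.47 to 7.75 and 8.84 (adjusted p = 0.0333). In DKO it was Nfkbia, which fell by 1.58 ± 0.41, from 12.29 and 12.98 to 11.11 and 10.99 (adjusted p = 0.0418). Both calls were lost with quantile normalization (0.0535 and 0.0583), with the DWT mouse as a block (0.0515 and 0.0693) and without any one of the arrays compared (0.0627 to 0.248 and 0.0647 to 0.215). The counterpart values were -2.36 ± 0.71 for Nfkbiz in DKO (adjusted p = 0.0722) and -1.31 ± 0.41 for Nfkbia in DWT (adjusted p = 0.0938). The 2 of 9 members called compare with 5.16% of all probe sets in DWT and 7.77% in DKO. All 9 differences were negative in both genotypes, where 40.8% of all probe sets were negative in DWT and 45.4% in DKO, and the members' medians were -1.31 and -1.58 against 0.12 and 0.06 over all probe sets. In DWT the stage IV arrays lay below both stage II+III arrays for 9 of 9 members, as for 26.0% of all probe sets, and in DKO for 7 of 9, as for 25.3%. Of these, 2 in DWT and 1 in DKO were under the background level in both groups. Leaving DKO-I replicate 2 out of the fit, which was added after seeing the data, changes only the estimate of the spread here. More members were called in that fit in both genotypes. No share over all probe sets stands beside these calls, and they are not read as a result about the members.

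Between stage I and stage II+III, 0 of 9 members passed in limma in DWT (background 0.245%) and 0 of 9 in DKO (0.327%), with 1 and 0 at an unadjusted p under 0.05. The 1 was Rel in DWT, 11.99 and 12.25 at stage I against 10.73 and 11.34, a difference of -1.08 ± 0.45 with an adjusted p of 0.587. Nfkbib in DKO-I was 13.67 and 10.15, the widest gap within a group among the members, and the low value belongs to replicate 2. Its difference between stage II+III and I in DKO was 1.54 with both arrays and -0.21 without replicate 2. Without DKO-I replicate 1, where the array that stands apart represents its group, this difference was 3.30. Calls in that fit are not read as results about the members.

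Markers of other blood cells moved with stage. The mean of the 12 neutrophil markers was 16.27 to 16.45 in DWT-I, 12.05 to 13.51 in DWT-II+III and 8.45 to 10.47 in DWT-IV, with 12, 11 and 6 of 12 above background in both arrays. In DKO these ranges were 14.65 to 16.86, 15.44 to 15.59 and 11.61 to 12.62, with 12, 12 and 11 of 12. Monocyte and macrophage markers were at 11.19 to 12.29 in DWT-II+III and 8.95 to 9.33 in DWT-IV, and at 13.24 to 13.55 in DKO-II+III and 10.50 to 10.85 in DKO-IV. Erythroid markers went the other way, with 14.09 to 14.69 in DWT-II+III and 15.41 to 15.69 in DWT-IV, and 12.10 to 13.22 in DKO-II+III and 15.37 to 15.42 in DKO-IV. The T and NK cell list was at 8.23 to 8.49, 10.09 to 10.29 and 8.54 to 8.79 over the 3 DWT stages and at 9.91 to 10.23, 10.37 to 11.65 and 7.87 to 10.35 over the DKO stages. The part of these cells in the members' differences was not tested.

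**Figure D3:**
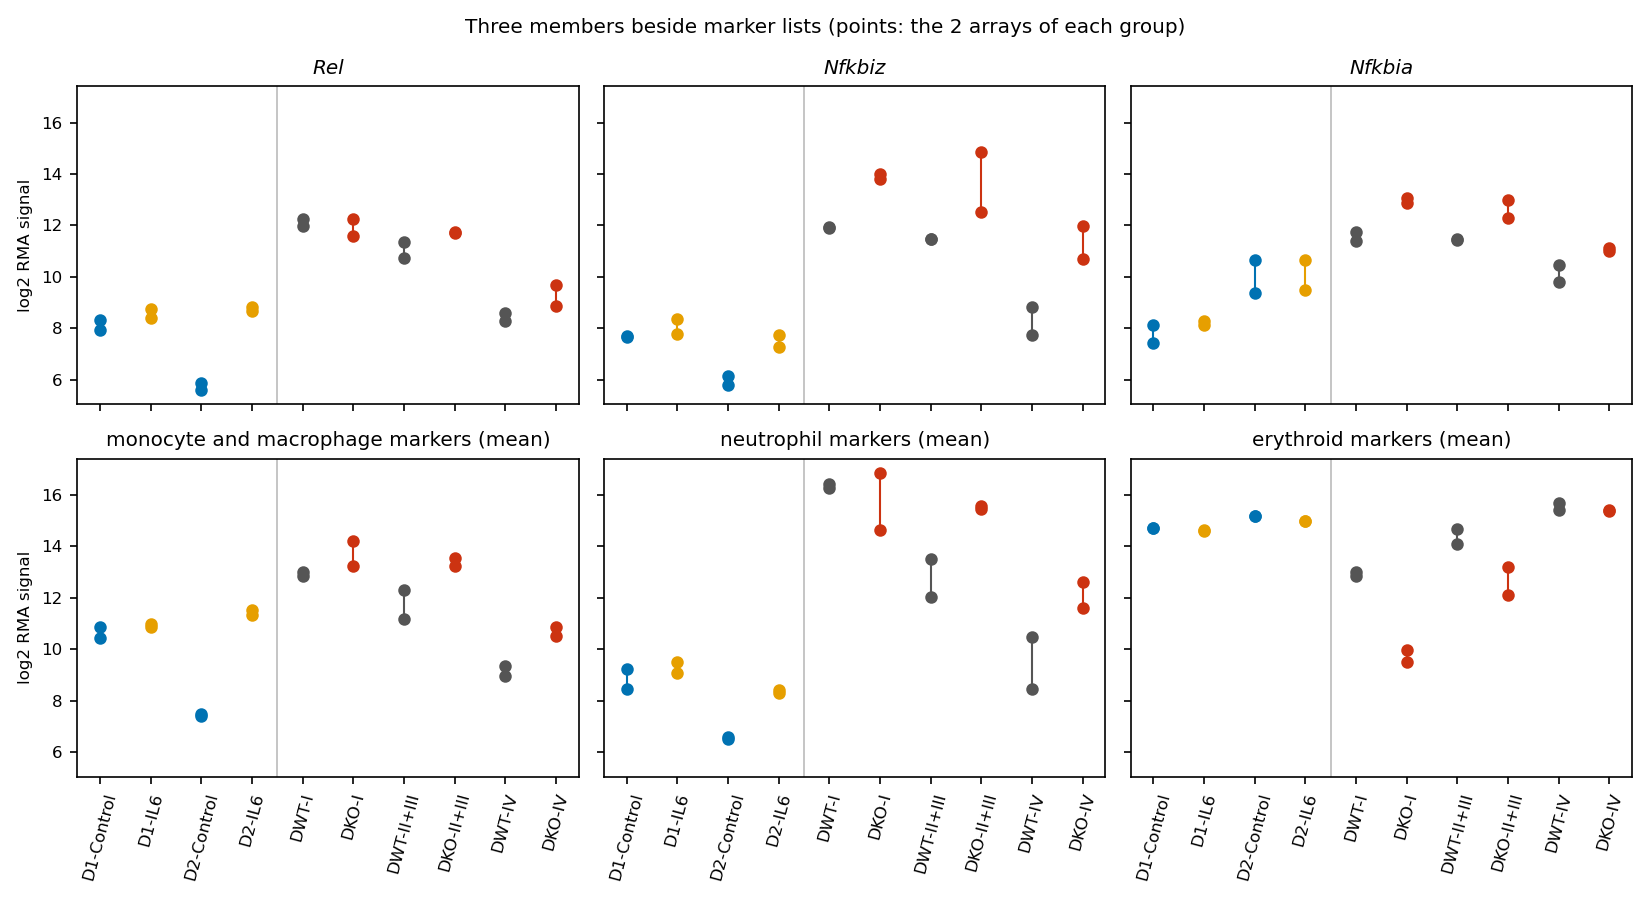
Log2 RMA signal (vertical axes) of Rel, Nfkbiz and Nfkbia (top) and mean log2 signal of the monocyte and macrophage, neutrophil and erythroid marker lists (bottom) in the 10 groups (horizontal axes), with 1 point per array. Rel and the monocyte and macrophage list are both lowest in D2-Control, at 5.60 to 5.87 and 7.41 to 7.47.

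The comparison of DKO with DWT mice asked how loss of mDia1 and miR-146a together altered these genes. No member passed the test at any stage: 0 of 9 were called in limma at stage I (background 0.445%), at stage II+III (0.618%) and at stage IV (0.046%), with 2, 2 and 3 at an unadjusted p under 0.05. Nfkbiz had the largest differences. At stage I it was 13.79 and 13.99 in DKO against 11.94 and 11.89 in DWT, a difference of 1.97 ± 0.71 (95% interval 0.40 to 3.55, adjusted p = 0.284). At stage II+III it was 12.53 and 14.84 against 11.46 and 11.47, a difference of 2.22 ± 0.71 (0.64 to 3.80, adjusted p = 0.274). At stage IV it was 10.69 and 11.97 against 7.75 and 8.84, a difference of 3.03 ± 0.71 (1.45 to 4.61, adjusted p = 0.242). The DKO arrays lay above the DWT arrays at each stage, but the differences did not pass the correction over all probe sets. At stage IV Nfkbiz did pass with all 20 arrays in 1 fit (adjusted p = 0.0327), and over the other alternatives its adjusted p there ran from 0.096 to 0.979. The stage I difference was 1.87 without DKO-I replicate 2, and that at stage II+III 1.06 without DKO-II+III replicate 2 and 3.38 without DKO-II+III replicate 1.

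Nfkbia showed a smaller gap of the same sign. It was 12.88 and 13.06 in DKO against 11.39 and 11.73 in DWT at stage I, a difference of 1.41 ± 0.41 (95% interval 0.51 to 2.32, adjusted p = 0.213). The gap was 1.19 ± 0.41 at stage II+III (adjusted p = 0.332) and 0.92 ± 0.41 at stage IV (adjusted p = 0.609), again with no overlap of the arrays. Without DKO-I replicate 1, a fit whose calls are not read because the array that stands apart represents DKO-I, its stage I difference was 1.50. Without DKO-I replicate 2 it was 1.32 (adjusted p = 0.413), and over the remaining alternatives the adjusted p ran from 0.111 to 0.724. Rela at stage IV was 11.85 and 11.46 in DKO against 9.79 and 10.82 in DWT, a difference of 1.35 ± 0.44 (adjusted p = 0.444). Rel differed by -0.20 ± 0.45, 0.68 ± 0.45 and 0.82 ± 0.45 over the 3 stages, with intervals that include 0. Tnfaip3, the other feedback gene, differed by 0.30, 0.11 and -0.45, each ± 0.60.

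Counting signs, 6 of 9 members were higher in DKO at stage I, 9 at stage II+III and 8 at stage IV, where 60.9%, 51.2% and 48.2% of all probe sets were. DKO arrays lay wholly above DWT arrays for 4, 6 and 8 of 9 members, as for 26.7%, 23.0% and 22.4% of all probe sets, and for 0 members wholly below. Of these, 1, 2 and 3 were under the background level in both groups (Relb at each stage, Nfkbie at the later stages and Nfkb2 at stage IV). Among members with a signal 3 of 7, 4 of 7 and 5 of 6 remain. No share over probe sets with a signal was computed, so these counts are not read as a result about the members. The members' median differences were 0.26, 0.70 and 0.82, against 0.15, 0.01 and -0.02 over all probe sets. Whether the gap between genotypes differed between stages was tested as well. From I to II+III and from II+III to IV, 0 of 9 members passed in limma, as did 0% of all probe sets. An unadjusted p under 0.05 was found for 942 and 662 probe sets, 0 of them members. Calls in the fit without DKO-I replicate 1, where the array that stands apart represents DKO-I, are not read as results about the members.

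Marker lists differed between the genotypes too. Erythroid markers averaged 9.50 to 9.97 in DKO-I against 12.84 to 13.00 in DWT-I, 12.10 to 13.22 in DKO-II+III against 14.09 to 14.69, and 15.37 to 15.42 in DKO-IV against 15.41 to 15.69. Neutrophil markers were at 15.44 to 15.59 in DKO-II+III against 12.05 to 13.51 in DWT-II+III, and at 11.61 to 12.62 in DKO-IV against 8.45 to 10.47 in DWT-IV. At stage I they overlapped, at 14.65 to 16.86 and 16.27 to 16.45. The mean of the monocyte and macrophage list was higher in DKO at each stage, at 13.23 to 14.22 against 12.85 to 12.99, 13.24 to 13.55 against 11.19 to 12.29, and 10.50 to 10.85 against 8.95 to 9.33. Its markers did not all go that way: 5 of 9 were higher at stage I, 8 at stage II+III and 7 at stage IV. At stage I Cd14 and Ms4a6d stood at 13.0 and 14.42 in DKO against 9.53 and 9.69, while Csf1r, Adgre1, Mpeg1 and Ccr2 were lower in DKO, Mpeg1 at 12.68 against 13.87. T and NK cell markers averaged 9.91 to 10.23 in DKO-I against 8.23 to 8.49 in DWT-I, with 7 of 8 higher, and overlapped at stage IV. Other lists were lower in DKO. Mast cell and basophil markers averaged 7.43 to 8.28 in DKO-I against 10.06 to 10.56 in DWT-I, with 6 of 6 lower at each stage. Eosinophil markers averaged 6.75 to 10.50 in DKO-I against 12.70 to 12.75 in DWT-I, with 5 of 5 lower at stages I and II+III. Stem and progenitor markers averaged 6.33 to 8.44 in DKO-I against 9.51 to 9.65 in DWT-I, with 4 of 5 lower. The part of these cells in the gaps of Nfkbiz and Nfkbia was not tested.

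**Figure D4:**
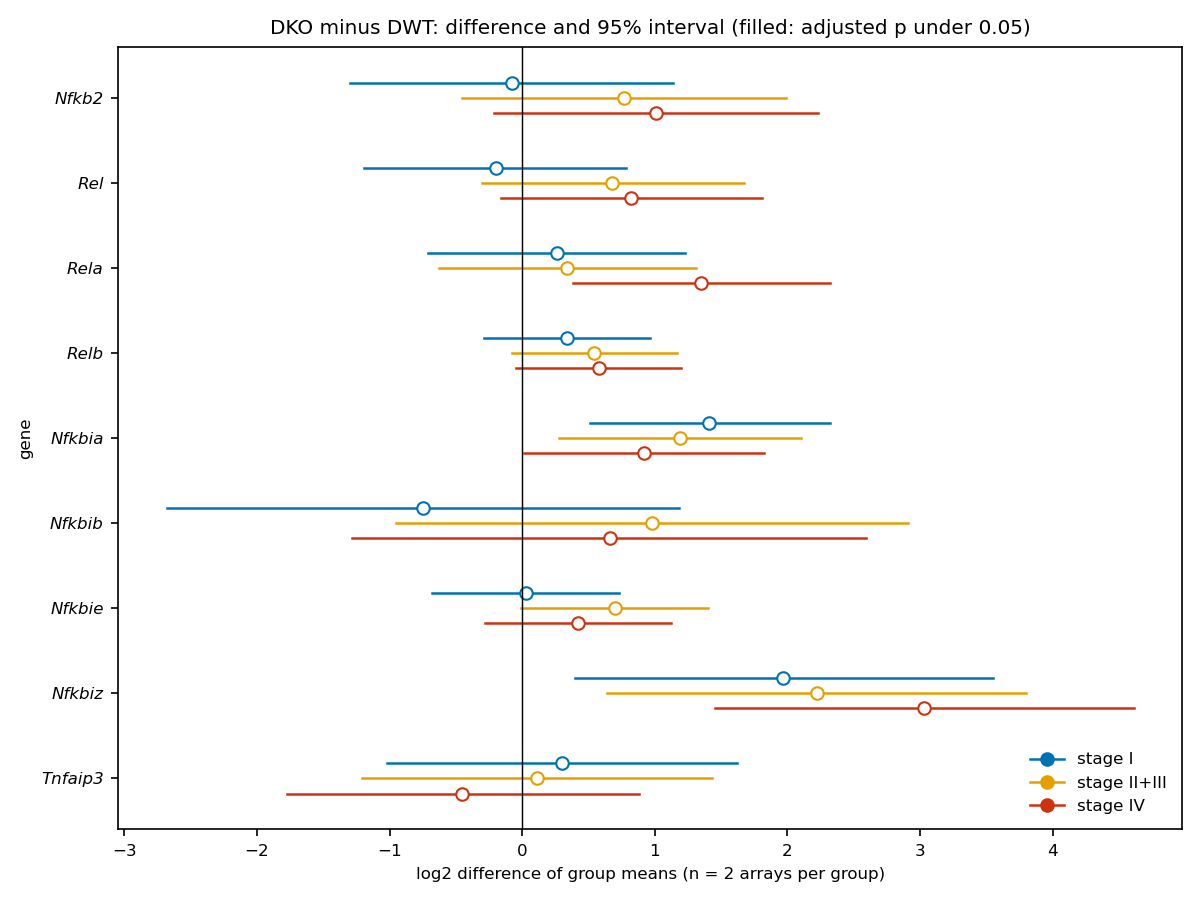
Log2 differences between DKO and DWT (horizontal axis) for each member (vertical axis) at the 3 stages, with 95% intervals from the limma fit. No point is filled, since no adjusted p is under 0.05, and Nfkbiz lies farthest to the right at 1.97, 2.22 and 3.03.

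Genes around NF-kB in the pathway were followed in 4 lists: receptors upstream (18 of 19 measured), adaptors and kinases (25 of 31), other regulators (16 of 16) and known target genes (34 of 34). With IL-6 at D2, 7 of 18 receptors were higher and 0 lower, 1 of them near background in both groups, with a list median of 1.16 against -0.07 over all probe sets, of which 3.31% were called. Among them were Tlr13 and Tlr7, endosomal sensors of microbial RNA, by 6.28 ± 0.34 and 5.08 ± 0.43 (bounds 3.38 and 3.85), Tnfrsf1a, the main receptor for tumour necrosis factor, by 3.10 ± 0.51, and Tlr1, a sensor of bacterial lipopeptides, by 2.33 ± 0.30 (bound 0.12). Of the 25 adaptors and kinases 1 was higher, Irak3, a kinase-like protein that dampens Toll-like receptor signals, by 3.77 ± 0.32. None of the 16 other regulators was called. Of the 34 targets 6 were higher and 0 lower, 2 of them near background in both groups, with a list median of 0.09. The leading targets were Lcn2, an iron-siderophore-binding protein, by 6.11 ± 0.28 (bound 3.22), Saa3, an acute-phase protein, by 4.62 ± 0.76 (bound 3.16), Plaur, the urokinase receptor, by 3.72 ± 0.40 (bound 1.16), and the chemokine Ccl3, by 3.10 ± 0.46 (bound 1.42). Lcn2 was the 1 gene of all 4 lists called at D1, by 4.40 ± 0.28 (bound 1.74), where 0.0511% of all probe sets were called.

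From D1 to D2 in control cultures 10 of 18 receptors were lower and 1 higher, which is 61.1% of the list against 43.2% of all probe sets called, and 5 of these receptors (Tlr1, Tlr6, Tlr9, Cd14 and Il1rap) were near background in both groups. The one that rose was Il1r1, the signalling receptor of interleukin 1, by 5.15 ± 0.26 (bound 4.81), and Tlr13 fell by 3.50 ± 0.34 and Tlr7 fell by 3.43 ± 0.43 (bounds -0.61 and -2.20). Called higher and lower were 7 and 10 of the adaptors and kinases (68.0%), 4 and 3 of the regulators (43.8%, near the share over all probe sets) and 3 and 5 of the targets (23.5%, below it). The largest rise was that of Bcl2l1, which encodes the survival protein Bcl-xL, at 6.36 ± 0.22. With IL-6, 5 receptors were called higher and 2 lower from D1 to D2, 38.9% of the list against 33.2% of all probe sets. Bcl2l1 rose there by 6.84 ± 0.22. Between stage II+III and stage IV, 2 receptors fell in DWT and 6 in DKO, 11.1% and 33.3% of the list against 5.16% and 7.77% of all probe sets, and 0 rose in either. Tnfrsf1a and Tlr13 were called in both. Tnfrsf1a fell by 4.26 ± 0.69 in DWT and fell by 2.86 ± 0.69 in DKO. Tlr13 fell by 3.83 ± 0.52 in DWT and fell by 3.60 ± 0.52 in DKO. Of the 34 targets 2 were lower in DWT, 5.88% of the list and near the share over all probe sets. There Lcn2 fell by 4.11 ± 0.84 and Plaur fell by 3.21 ± 0.58 (bound -2.83). In DKO 7 were lower, 20.6% of the list, among them Plaur, which fell by 3.85 ± 0.58, and the chemokine Cxcl2, which fell by 3.64 ± 0.40. Without DKO-I replicate 2 in the fit more receptors and targets were called lower in both genotypes, and some targets were called higher. No share over all probe sets stands beside these calls, and they are not read as a result about the lists.

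Between genotypes few of these genes were called. Over all probe sets 0.445% were called at stage I, 0.618% at stage II+III and 0.046% at stage IV. Higher in DKO were 2 of 34 targets at stage I (5.88%), Saa3 by 9.79 ± 1.23 (bound 7.74) and Cxcl2 by 2.26 ± 0.40. At stage II+III they were 3 of 34 (8.82%), Saa3 by 8.08 ± 1.23 (bound 6.72), the cytokine gene Il1b by 4.74 ± 0.49 and Cxcl2 by 4.21 ± 0.40 (bound 3.72). There 1 of 18 receptors (5.56%) was higher too, the lipopolysaccharide co-receptor Cd14, by 5.07 ± 0.74. None of the 25 adaptors and kinases was called at any stage, and 0 genes of the 4 lists were called at stage IV. Without DKO-I replicate 2 in the fit, genes of each list were called at some stage. Targets were called in both directions at stages I and II+III and higher at stage IV, and an adaptor or kinase lower at II+III. No share over all probe sets stands beside these calls. In that fit the stage I difference was 8.70 for Saa3, which kept its call, and 2.10 for Cxcl2, which lost it.

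**Figure D5:**
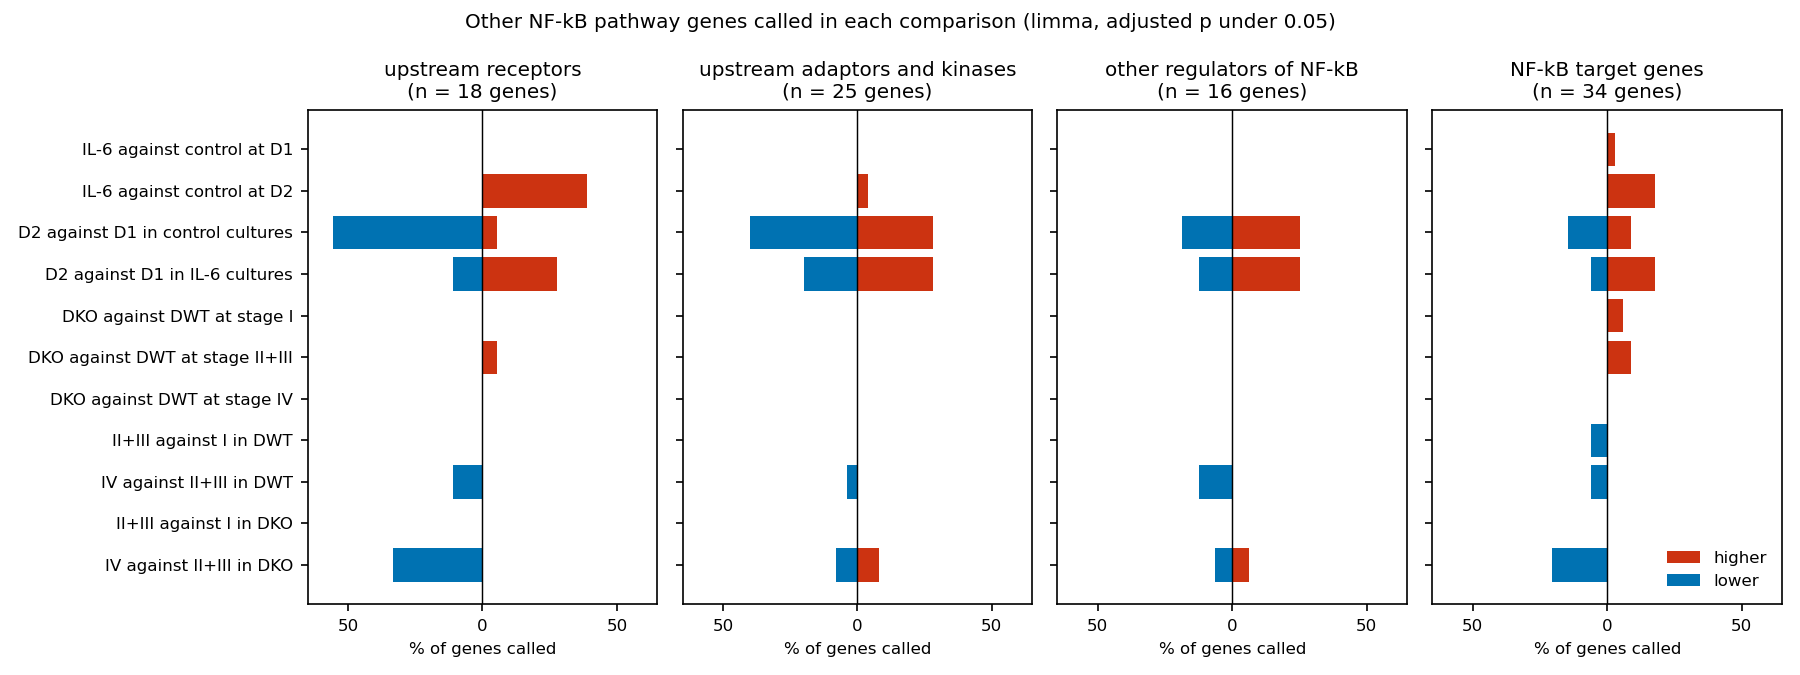
Share of the genes of 4 NF-kB pathway lists called higher (to the right, red) or lower (to the left, blue) in 11 comparisons, in % of the measured genes of each list (horizontal axes), at an adjusted p under 0.05 in limma. With IL-6 at D2 the receptor list holds 7 of 18 called higher, against 3.31% of all probe sets called. In the DKO comparisons 0, 1 and 0 receptors are called, against 0.445%, 0.618% and 0.046%.

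The genes most like each member across the 10 group means were named by Pearson's r for the 6 members whose group means spanned more than 2, among genes above background in both arrays of at least 1 group (9172, or 9173 for Nfkb2). For Rel these were Cd53, a tetraspanin of white blood cells (r = 0.992), Inppl1, an inositol phosphatase (0.990), and Fmnl1, a formin of blood cells (0.990). For Nfkbiz they were Ptpn22, a phosphatase of immune cells (0.986), Slc28a2, a nucleoside transporter (0.985), and Prkcb, a protein kinase C (0.985). The closest to Tnfaip3 was the chemokine Ccl4 (0.985), followed by the NK cell receptor Klrb1c (0.966) and Gm4759 (0.964). For Nfkbia they were Clec2g (0.965), Tcta (0.961) and E230029C05Rik (0.946), for Nfkbib Ech1 (0.958), Tmem160 (0.956) and Tpi1 (0.951), and for Nfkb2 Dcxr (0.939), Dhrs3 (0.936) and Mef2a (0.931). These are descriptions over 10 points that share the division into culture and mouse samples.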

How the data were processed

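The authors deposited log2 signals. RMA (robust multi-array averaging) and Affymetrix Expression Console are named, without versions, per the submitters' processing notes. Whether all 20 arrays were normalized together is not given in the sources used here. Total RNA was amplified in very small amounts with a Pico kit and checked for integrity, per the labels' protocols. Array number limits the precision, and there is no count depth.

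Differences were fitted in limma 3.58.1 (R 4.3.3) with lmFit and eBayes, using an intensity trend, after a test on simulated data. One model held the 8 cultured arrays, with 4 residual and 6.41 prior degrees of freedom. Another held the 12 in vivo arrays, with 6 and 4.52. P-values were 2-sided, with Benjamini-Hochberg adjustment over 19572 probe sets, and an adjusted p under 0.05 counted as called. Errors are standard errors. Where a group was under background in both arrays, a bound was computed against the higher of the background level and its own signal, if the other group's mean exceeded that. Probe sets with no symbol (2634) were left out. Promoter windows and microRNAs were read from RefSeq tables.

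Members and lists were chosen with earlier results of these data known. Named were all members, the called list genes (up to 4 per list and comparison, by size of change) and the 3 genes most like each member whose group means spanned more than 2. That DWT arrays of 1 sex come from 1 mouse was inferred, since each stage has 1 male and 1 female and the series 2 DWT mice. The male-minus-female differences correlated at 0.0988, 0.0214 and 0.124 between stages, and the mouse was a block in an alternative. The alternatives were quantile normalization, median centring, no intensity trend, all 20 arrays in 1 fit, the mouse block, dim probe sets left out and each array left out. Leaving DKO-I replicate 2 out of comparisons without its group was added after seeing the data.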

Additional observations from a re-analysis of the deposited data

Results flagged for a closer look

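The effect of IL-6 on Rel differed between the D1 and D2 cultures. The difference of effects, D2 minus D1, was 2.54 ± 0.41 on the log2 scale (n = 2 arrays per group, adjusted p = 0.0119 in limma's interaction test), from an effect of 0.47 at D1 and 3.01 at D2. Both D2-Control arrays were under the background level for Rel, so the effect at D2 can be stated as at least 1.26 and the difference of effects as at least 0.79. The adjusted p ran from 0.00454 to 0.0889 over 13 alternatives, 10 of which kept the call.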

How the results depend on the processing

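Counts of members called changed as follows. With all 20 arrays in 1 fit they were 1 for IL-6 at D2, 2 from D1 to D2 with IL-6, 0 for the difference of IL-6 effects, 1 for DKO against DWT at stage IV, and 4 in DWT and 5 in DKO from stage II+III to IV. With dim probe sets left out 3 were called from D1 to D2 with IL-6. Quantile normalization and the DWT mouse block each left 1 in DWT and 1 in DKO from stage II+III to IV. No paired analysis was possible for DKO or the cultures because the labels do not tie their arrays to mice. Leaving out 1 array gave 1 to 2 for IL-6 at D2, 3 to 5 from D1 to D2 in control and 1 to 4 in IL-6 cultures, 0 to 1 for the difference of IL-6 effects, 0 to 2 for DKO against DWT at stage I, 0 to 3 from stage I to II+III in DKO, 0 to 2 for the change of the DKO effect from I to II+III, and 0 to 5 in DWT and 0 to 7 in DKO from stage II+III to IV. The highest of the last pair came without DKO-I replicate 2, and those of the 3 results with stage I without DKO-I replicate 1. No share over all probe sets stands beside the counts without DKO-I replicate 2. In that fit more receptors and targets were also called lower from stage II+III to IV in both genotypes. The counts with 1 array left out are not read as results about the members. Smaller shifts were 6 from D1 to D2 in control cultures with quantile normalization and 4 with all 20 arrays in 1 fit, 4 from D1 to D2 with IL-6 with quantile normalization and with median centring, and, from stage II+III to IV, 3 in DWT without the trend and 3 in each genotype with dim probe sets left out. For IL-6 at D1, DKO against DWT at stage II+III, stage I to II+III in DWT and the change of the DKO effect from II+III to IV, 0 members were called in every alternative run. Without DKO-I replicate 2 Nfkbib reversed from stage I to II+III in DKO (-0.21, against 3.30 without replicate 1) and in the change of the DKO effect (-0.03, against 3.49). Over all probe sets, 1 fit of all 20 arrays called 0, 269 and 4291 for IL-6 at D1, at D2 and D2 against D1 with IL-6, 54 for the difference of IL-6 effects, 502, 547 and 124 for DKO against DWT at stages I, II+III and IV, 300 and 269 from stage I to II+III in DWT and DKO, 2465 and 2904 from II+III to IV, and 4 and 5 for the changes of the DKO effect. The DWT mouse block called 24, 15 and 0 at the 3 stages and 41 from stage I to II+III in DKO. With dim probe sets left out it was 146 and 192 at stages I and II+III and 103 from I to II+III in DKO. Quantile normalization called 6 for IL-6 at D1 and 5 for DKO against DWT at stage IV, and fitting without the trend 2 for IL-6 at D1 and 1 for the change of the DKO effect from I to II+III. Leaving out DKO-I replicate 1 called 6066 at stage I and 4560 from I to II+III in DKO. The causes were not tested. Signals near background limit what can be said of Nfkb2, Relb and Nfkbie.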
